A study of Homo sapiens with 24 samples.

Results

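The transcripts of 10 genes that build or restrain the transcription factor NF-kB were followed through 24 RNA sequencing libraries of human cancer cell lines. The genes were chosen by name and account for 10 of the 60504 rows measured. They are the 5 subunit genes NFKB1, NFKB2, RELA, RELB and REL, the 3 classical inhibitor (IkB) genes NFKBIA, NFKBIB and NFKBIE, and 2 further feedback genes, TNFAIP3 and IER3. Cells had received a small interfering RNA (siRNA) against GCDH (siGCDH) or a control siRNA (siControl) and were collected 48 hours after transfection. GCDH encodes glutaryl-CoA dehydrogenase, which acts in mitochondria in the breakdown of lysine and tryptophan, and the study asked how melanoma cells depend on it and on the transcription factor NRF2. There were 8 groups of 3 libraries, siGCDH and siControl each in A375 (melanoma, batch 1 and batch 2), SK-Hep1 (labelled liver) and SKBR3 (labelled breast). A375 batch 1 was made with a 3' tag kit (QuantSeq), and the other 18 libraries with a poly(A) selected, full-length kit. The siRNA sequences were not used here, and each group is 1 line under 1 siRNA condition, with the replicates seeded as triplicate wells, so the p-values measure the spread between wells, which may be technical. Values are length-corrected transcript shares (TPM), which hold no read totals, so the sequencing depth is unknown. In bulk RNA, fewer expressing cells and less RNA per cell cannot be told apart.

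NF-kB factors are dimers of 5 related proteins. RELA, RELB and REL carry an activation domain, whereas NFKB1 and NFKB2 are made as long precursors (p105 and p100) that are processed to the DNA-binding forms p50 and p52. In resting cells IkB proteins hold the dimers in the cytoplasm, and signals from receptors of TNF, interleukin-1 or microbial products activate the IkB kinase, which marks the IkB proteins for destruction. Several subunit and inhibitor genes are themselves known NF-kB targets. NFKBIA, NFKBIE and TNFAIP3 thereby form feedback loops, and TNFAIP3 encodes A20, an enzyme that edits ubiquitin on the receptor complexes. IER3 is an immediate early gene of stress and growth signalling that is also an NF-kB target. Melanoma cells often have NF-kB activity without an added stimulus.

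Matches to the DNA motif of NF-kB near the starts of these genes are shown because the members that fell together in SK-Hep1 include known feedback targets of the factor. RefSeq windows (GRCh38.p14) of 250 bases before to 50 after each annotated start were searched on both strands with the kB consensus, a 10-base motif. Of the 10 genes, 7 had at least 1 window (12 windows in all), and 6 of these 7 held a match (NFKB1, NFKB2, REL, NFKBIA, NFKBIB and TNFAIP3), whereas the windows of RELA held none. Across RefSeq, 1937 of 27305 symbols (7.09%) and 2075 of 35116 windows (5.91%) held a match. The members were picked by name and several are known NF-kB targets, so their higher share is no result of these data. Matches also lay in NFKBIB, which rose in SK-Hep1, and in REL, which was not called there. Whether the matches bear on the changes was not tested. No sequence is given for RELB, NFKBIE and IER3, which had no window, although RELB and NFKBIE fell in SK-Hep1. One stretch of at most 30 bases per gene, and 1 at each of 2 starts of NFKB2, are given 5' to 3' on the strand of the gene, with the matching bases in capitals.
NFKB1 (chr4:102501300-102501329, plus strand): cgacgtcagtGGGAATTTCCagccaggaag
NFKB2 (chr10:102394462-102394490, plus strand): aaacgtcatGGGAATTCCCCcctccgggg
NFKB2 (chr10:102395674-102395703, plus strand): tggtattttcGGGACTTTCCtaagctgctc
REL (chr2:60881518-60881546, plus strand): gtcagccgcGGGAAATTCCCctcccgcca
NFKBIA (chr14:35404811-35404840, minus strand): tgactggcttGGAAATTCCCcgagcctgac
NFKBIB (chr19:38899932-38899960, plus strand): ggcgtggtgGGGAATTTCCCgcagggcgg
TNFAIP3 (chr6:137867188-137867217, plus strand): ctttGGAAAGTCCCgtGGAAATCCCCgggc
The capitals begin 49 bases before the start of NFKB1, 107 and 21 bases before the separate starts of NFKB2, 47 before REL, 81 before NFKBIA, 28 before NFKBIB and 67 before TNFAIP3. Further matches in NFKB2 lie 78 and 176 bases before these starts. A further window of NFKB1, of NFKB2 and of NFKBIB held no match. All these distances are from RefSeq starts. The GENCODE gene starts given below differ for several genes, and in REL, NFKB2, NFKBIB and TNFAIP3 the capitals lie after them. REL, NFKBIB and the upstream NFKB2 stretch each hold 2 overlapping matches, and TNFAIP3 holds 2 matches side by side. A match describes the letters in the window and says nothing of binding in these cells.

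GCDH itself was lower with siGCDH, without overlap, in each line and batch, at 3.72 ± 0.269 against 20.9 ± 1.71 TPM in batch 2 of A375, 0.917 ± 0.595 against 4.41 ± 2.48 in its batch 1, 2.76 ± 0.500 against 9.41 ± 0.413 in SK-Hep1 and 5.94 ± 1.52 against 22.5 ± 0.397 in the libraries labelled SKBR3 (SD, n = 3 each; exact two-sided permutation p = 0.1 each, the smallest that 3 against 3 allow). It passed the limma test of all genes except in batch 1 (adjusted p = 0.118). Of 7 melanocyte markers, SOX10, MITF and S100B were present in A375, whereas PMEL, MLANA, DCT and TYR were near or at 0, with group means of at most 0.960 TPM. Of 5 hepatocyte markers, SK-Hep1 held ALB, APOA1, TTR and HNF4A at 0, and AFP at 1.99 ± 0.542 TPM with siGCDH and 0.690 ± 0.259 with siControl. The libraries labelled SKBR3 go against their label: ERBB2, amplified in the SKBR3 line, had 41.6 ± 3.25 TPM with siGCDH and 25.5 ± 2.23 with siControl, against 46.4 ± 5.12 TPM in SK-Hep1 siControl libraries, and the epithelial keratin KRT19 had 0.120 ± 0.208 TPM with siGCDH and 0.227 ± 0.393 with siControl. In these libraries the 4 immune cell markers summed to 7.83 to 10.9 TPM with siGCDH and 3.69 to 4.87 TPM with siControl, with PTPRC and CD3E at 0, and 17112 to 17251 genes reached 1 TPM with siGCDH against 15140 to 15181 with siControl. The part of these shifts in the results was not tested. In A375 batch 1, 6 rows of chromosome 21 took 33.0 ± 1.65% of TPM with siGCDH and 17.1 ± 2.07% with siControl, against under 0.1% as the mean of every other group. These rows are long intergenic RNA genes in the region of that chromosome that holds ribosomal RNA genes. The source of their reads was not tested. The median log2 fold change of all tested genes was 0.02 for batch 2 of A375, -0.20 for its batch 1, 0.18 for SK-Hep1 and 0.29 for the libraries labelled SKBR3, so each result was also computed after every library was scaled to a common median (median scaling). That scaling changed the genes called higher and lower from 152 and 866 to 207 and 294 in batch 1, from 5432 and 2644 to 4198 and 3343 in SK-Hep1, and from 7805 and 2431 to 4995 and 4171 in the libraries labelled SKBR3.

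With control siRNA the lines differed in how much they held of most of these transcripts, though NFKBIE passed between no pair of lines as deposited. Positions are on hg38 (GENCODE 29). In siControl libraries A375 batch 2 was the NFKB1 and NFKB2 rich line, SK-Hep1 the line with most NFKBIA and TNFAIP3, and the libraries labelled SKBR3 had little RELB, TNFAIP3 and IER3. TPM correct for transcript length, so levels of different genes can be set side by side within the full-length kit. NFKB1 (ENSG00000109320, chromosome 4, 102501329 to 102617302, plus strand), the gene of p105 and p50, averaged 63.2 ± 0.791 TPM in A375 batch 2, 23.6 ± 0.870 in SK-Hep1 and 11.6 ± 0.495 in the libraries labelled SKBR3. NFKB2 (ENSG00000077150, chromosome 10, 102394110 to 102402529, plus strand), whose p52 product is central to the slower, non-canonical route, averaged 57.6 ± 1.07, 47.9 ± 4.31 and 24.1 ± 0.861 TPM in the same order. The difference between A375 and SK-Hep1 was 0.26 for NFKB2 (adjusted p = 0.0124), and it did not pass after median scaling (0.08, adjusted p = 0.369). RELA (ENSG00000173039, chromosome 11, 65653596 to 65663094, minus strand), the main activating subunit p65, spanned a narrower range than these, with 56.1 ± 0.464, 62.2 ± 1.73 and 41.3 ± 1.83 TPM. The A375 minus SK-Hep1 difference of RELA was -0.15 (adjusted p = 0.0188) and lost its call without A375 siControl library 2 or SK-Hep1 siControl library 1 or 3, at -0.17 to -0.13. It passed after median scaling (-0.33, adjusted p = 0.000331). RELB (ENSG00000104856, chromosome 19, 45001430 to 45038198, plus strand), the partner of p52, had 20.5 ± 1.54 TPM in A375, 21.7 ± 1.29 in SK-Hep1 and 2.41 ± 0.204 in the libraries labelled SKBR3. A375 and SK-Hep1 overlapped in RELB (-0.08, adjusted p = 0.396), and their difference passed after median scaling (-0.26, adjusted p = 0.024). REL (ENSG00000162924, chromosome 2, 60881521 to 60931610, plus strand), or c-Rel, known mainly from lymphoid cells, was the lowest subunit in A375 and SK-Hep1 at 2.19 ± 0.0907 and 2.55 ± 0.210 TPM, and had 5 ± 0.170 TPM in the libraries labelled SKBR3. REL was higher there than in A375 (A375 minus SKBR3 -0.91, SE 0.10, adjusted p = 0.000132).

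Among the inhibitors, NFKBIA (ENSG00000100906, chromosome 14, 35401511 to 35404749, minus strand), or IkB alpha, the fast feedback inhibitor, had 39.4 ± 2.50 TPM in A375 batch 2, 79.4 ± 2.25 in SK-Hep1 and 13.8 ± 0.886 in the libraries labelled SKBR3. NFKBIB (ENSG00000104825, chromosome 19, 38899700 to 38908893, plus strand), or IkB beta, which turns over more slowly, ran in another order, with 25.6 ± 1.02, 14 ± 0.559 and 35.4 ± 1.44 TPM. All pairs of lines differed beyond their spread in both genes. NFKBIE (ENSG00000146232, chromosome 6, 44258166 to 44265788, minus strand), or IkB epsilon, had 12.9 ± 1.59, 15.1 ± 1.33 and 12.8 ± 2.45 TPM, and no pair of lines passed the test as deposited. A375 minus SK-Hep1 (-0.21) did pass after median scaling (-0.39, adjusted p = 0.0132) and without A375 siControl library 2 (-0.30), and SK-Hep1 minus SKBR3 (0.24) without SKBR3 siControl library 3 (0.36). TNFAIP3 (ENSG00000118503, chromosome 6, 137867188 to 137883312, plus strand) had 5.59 ± 0.933 TPM in A375, 36.3 ± 0.478 in SK-Hep1 and 2.37 ± 0.495 in the libraries labelled SKBR3, which puts SK-Hep1 above both others (A375 minus SK-Hep1 -2.51, SE 0.11, adjusted p = 1.40e-06). IER3 (ENSG00000137331, chromosome 6, 30743199 to 30744554, minus strand) was the most abundant of the 10 in A375 and SK-Hep1, at 162 ± 6.14 and 175 ± 5.06 TPM, and had 6.34 ± 0.218 TPM in the libraries labelled SKBR3 (SK-Hep1 minus SKBR3 4.59, SE 0.05, adjusted p = 3.52e-09). The small A375 minus SK-Hep1 difference of IER3, -0.12 (adjusted p = 0.0405), lost its call under several alternatives, among them without A375 siControl library 2 or 3 or SK-Hep1 siControl library 2 or 3 (-0.15 to -0.10). It passed after median scaling (-0.30, adjusted p = 0.000369). In limma fits with an adjusted p under 0.05 as the threshold, 7 of the 10 differed between A375 batch 2 and SK-Hep1, 3 higher and 4 lower in A375, where 75% of all tested genes differed (45.7% higher, 29.3% lower). Median scaling made this 2 higher and 6 lower, where 5808 of 15157 tested genes were higher and 5331 lower. Between A375 batch 2 and the libraries labelled SKBR3, 7 were higher and 2 lower in A375 (75.1% of all genes differed, 34.5% higher and 40.5% lower), and between SK-Hep1 and those libraries 7 were higher and 2 lower in SK-Hep1 (79.3% of all genes, 28.9% higher and 50.5% lower). Any 2 of the 3 comparisons share the siControl libraries of a line.

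**Figure D1:**
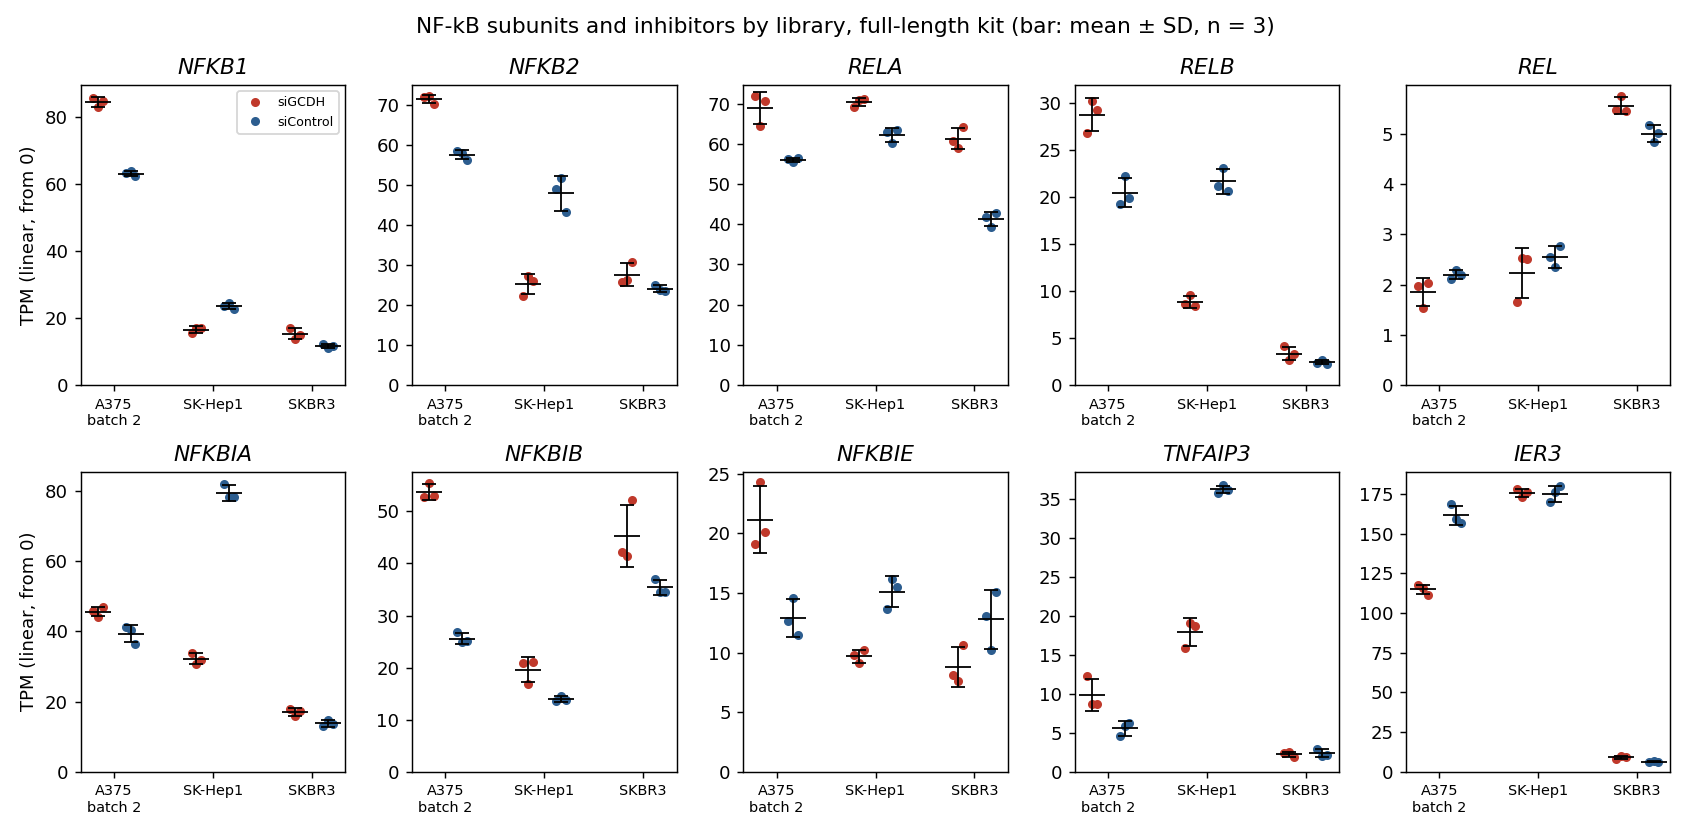
TPM of each gene (linear axis from 0) in every full-length library, with siGCDH in red left of siControl in blue for A375 batch 2, SK-Hep1 and the libraries labelled SKBR3; points are libraries and bars mean ± SD (n = 3). NFKBIA, RELB, TNFAIP3 and NFKB2 lie lower with siGCDH in SK-Hep1 and higher in A375 batch 2, and IER3 lies lower with siGCDH in A375 batch 2.

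After GCDH siRNA 6 of the 10 members moved in opposite directions in A375 batch 2 and SK-Hep1. The share of all genes that moved in this way was not counted, so this joint count has no background to be read against. In SK-Hep1, 6 members fell (NFKB1, NFKB2, RELB, NFKBIA, NFKBIE and TNFAIP3), and all 6 of these rose in A375 batch 2, where the call of NFKBIA was lost when any 1 library was left out. None of the 6 was called in A375 batch 1, where NFKB2 (-0.17), NFKBIA (-0.12) and NFKBIE (-0.53) had values below 0. NFKBIB rose in A375 batch 2 and SK-Hep1, and IER3 fell in both A375 batches. In A375 batch 2, limma called 8 of 10 higher and 1 lower, where 33.6% of all genes were called (17.9% higher, 15.7% lower), and the median of the members was 0.36 on the log2 scale against 0.02 for all genes. In SK-Hep1, 2 were higher and 6 lower, where 55.5% of all genes were called (37.3% higher, 18.2% lower), with a median of -0.54 against 0.18. After median scaling 1 was higher and 6 lower in SK-Hep1 (all genes 4198 and 3343 of 14545), and 8 higher and 1 lower in A375 batch 2 (all genes 2677 and 2451 of 15183). In the libraries labelled SKBR3, 5 were higher and 1 lower, where 62.1% of all genes were called (47.3% higher, 14.7% lower), with a median of 0.31 against 0.29. Median scaling left 1 higher (RELA) and 1 lower (NFKBIE) there, against 4995 higher and 4171 lower of 16414 tested genes. In A375 batch 1, IER3 alone was called, lower, where 7.91% of all genes were called. All fold changes were computed as log2(TPM + 1), a scale that understates changes of low genes.

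The genes of the precursor subunits rose in A375 batch 2 and fell in SK-Hep1. NFKB1 in A375 batch 2 had 85.8, 83.1 and 85.0 TPM in the siGCDH libraries, against 63.4, 63.9 and 62.4 TPM in the siControl libraries (log2 fold change 0.41, SE 0.04, adjusted p = 0.000495). In SK-Hep1 it had 15.4, 17.1 and 17.2 TPM with siGCDH, against 23.6, 24.4 and 22.7 TPM with siControl (log2 fold change -0.48, SE 0.08, adjusted p = 0.00114). The groups did not overlap in either line, with siGCDH above siControl in A375 and below it in SK-Hep1. The libraries labelled SKBR3 had 17.1, 13.9 and 14.9 TPM with siGCDH, against 12.2, 11.2 and 11.6 TPM with siControl, also without overlap, and the rise of 0.36 (adjusted p = 0.0125) shrank to 0.14 (adjusted p = 0.241) after median scaling. NFKB2 had 72.0, 72.2 and 70.4 TPM in the siGCDH libraries, against 58.4, 58.0 and 56.4 TPM in the siControl libraries of A375 batch 2 (log2 fold change 0.31, SE 0.05, adjusted p = 0.0023). In SK-Hep1 it had 22.4, 27.3 and 25.9 TPM with siGCDH, against 48.9, 51.6 and 43.2 TPM with siControl (log2 fold change -0.90, SE 0.10, adjusted p = 0.000161). All siGCDH libraries of SK-Hep1 thus lay well below the lowest siControl library, while the A375 groups were separated the other way. In the libraries labelled SKBR3 NFKB2 had 25.7, 26.3 and 30.8 TPM with siGCDH, against 25.1, 23.6 and 23.6 TPM with siControl, a difference that did not pass (0.18, adjusted p = 0.091, and -0.05 after median scaling).

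Of the activating subunits, RELB fell in SK-Hep1 and rose in A375 batch 2, and RELA rose in A375 batch 2. RELB had 8.60, 9.61 and 8.37 TPM in the siGCDH libraries, against 21.2, 23.1 and 20.6 TPM in the siControl libraries of SK-Hep1 (log2 fold change -1.20, SE 0.09, adjusted p = 2.68e-05). Its A375 batch 2 values were 26.8, 30.2 and 29.3 TPM with siGCDH, against 19.3, 22.2 and 19.9 TPM with siControl (log2 fold change 0.47, SE 0.08, adjusted p = 0.00417). The siGCDH libraries were all on one side of the siControl libraries in both lines, low in SK-Hep1 and high in A375. The libraries labelled SKBR3 had 4.11, 2.65 and 3.27 TPM with siGCDH, against 2.36, 2.63 and 2.23 TPM with siControl (log2 fold change 0.34, adjusted p = 0.119), which did not pass. RELA had 71.8, 64.4 and 70.7 TPM in the siGCDH libraries, against 56.2, 55.5 and 56.4 TPM in the siControl libraries of A375 batch 2 (log2 fold change 0.29, SE 0.06, adjusted p = 0.00702). In the libraries labelled SKBR3 it had 60.7, 59.0 and 64.1 TPM with siGCDH, against 41.9, 39.3 and 42.8 TPM with siControl (log2 fold change 0.56, SE 0.06, adjusted p = 0.000168). RELA was the one member whose rise in those libraries still passed after median scaling (0.32, adjusted p = 0.00229). In SK-Hep1 RELA had 69.3, 70.8 and 71.2 TPM with siGCDH, against 62.9, 60.2 and 63.4 TPM with siControl, with no overlap. Its log2 fold change there was 0.18 (adjusted p = 0.0185) and 0.06 (adjusted p = 0.315) after median scaling, and the call was also lost without siControl library 2 or siGCDH library 2 or 3 (0.16 to 0.19). REL was low in every group, with siGCDH libraries between 1.53 and 2.04 TPM against 2.11 to 2.29 TPM in A375 batch 2, 1.65 to 2.52 against 2.34 to 2.76 TPM in SK-Hep1, and 5.45 to 5.76 against 4.83 to 5.17 TPM in the libraries labelled SKBR3. No test of REL passed (log2 fold changes -0.17, -0.15 and 0.13), and in the annotation (GENCODE 29) 43.3% of its exon bases overlap AC010733.2 on the same strand, so its level is uncertain.

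The IkB genes separated from one another. NFKBIA had 33.9, 30.7 and 31.9 TPM in the siGCDH libraries, against 82.0, 78.1 and 78.1 TPM in the siControl libraries of SK-Hep1 (log2 fold change -1.28, SE 0.06, adjusted p = 3.15e-06), the largest fall among the 10 members in that line. A375 batch 2 had 45.8, 44.2 and 46.8 TPM with siGCDH, against 41.1, 40.5 and 36.5 TPM with siControl (log2 fold change 0.21, SE 0.07, adjusted p = 0.0434). Every SK-Hep1 siGCDH library was below every siControl library, and the A375 groups lay close together without overlap. The A375 call was lost when any 1 of the 6 libraries was left out (0.16 to 0.24), without a filter on low genes and without a mean-variance trend. The libraries labelled SKBR3 had 17.9, 15.8 and 17.3 TPM with siGCDH, against 13, 14.7 and 13.6 TPM with siControl, a rise of 0.29 (adjusted p = 0.019) that was 0.06 (adjusted p = 0.534) after median scaling, and the call was also lost without library 1 or 3 of either group (0.25 to 0.34). NFKBIB had 52.8, 55.5 and 52.9 TPM in the siGCDH libraries, against 26.8, 24.9 and 25.1 TPM in the siControl libraries of A375 batch 2 (log2 fold change 1.04, SE 0.06, adjusted p = 3.30e-05), the largest rise among the members there. In SK-Hep1 it had 20.8, 16.8 and 21.1 TPM with siGCDH, against 13.5, 14.6 and 13.9 TPM with siControl (log2 fold change 0.45, SE 0.10, adjusted p = 0.00666). NFKBIB was therefore higher with siGCDH in both lines, whereas NFKBIA was lower in SK-Hep1. The libraries labelled SKBR3 had 42.2, 41.5 and 52.2 TPM with siGCDH, against 37.0, 34.5 and 34.6 TPM with siControl, a rise of 0.34 (adjusted p = 0.0153) that did not pass after median scaling (0.11, adjusted p = 0.356).

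NFKBIE, the third IkB gene, went with NFKBIA in direction in A375 batch 2 and SK-Hep1, and against it in the libraries labelled SKBR3. It had 19.1, 24.3 and 20.1 TPM in the siGCDH libraries, against 12.7, 14.6 and 11.4 TPM in the siControl libraries of A375 batch 2 (log2 fold change 0.67, SE 0.12, adjusted p = 0.00512). In SK-Hep1 it had 9.76, 9.09 and 10.2 TPM with siGCDH, against 13.6, 16.2 and 15.5 TPM with siControl (log2 fold change -0.59, SE 0.10, adjusted p = 0.00134). The groups did not overlap in these lines and lay in opposite order. In the libraries labelled SKBR3 it had 8.10, 7.58 and 10.7 TPM with siGCDH, against 13, 10.2 and 15.1 TPM with siControl, and here the groups overlapped. Its log2 fold change there was -0.49 (adjusted p = 0.0358) and -0.71 (adjusted p = 0.00857) after median scaling. That call was lost without a filter, without a trend, and without siControl library 1 or 3 or siGCDH library 1 or 2 (-0.63 to -0.37).

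The other feedback genes did not move alike. TNFAIP3 had 15.9, 19.1 and 18.8 TPM in the siGCDH libraries, against 35.9, 36.8 and 36.2 TPM in the siControl libraries of SK-Hep1 (log2 fold change -0.98, SE 0.08, adjusted p = 5.33e-05). A375 batch 2 libraries had 12.3, 8.74 and 8.70 TPM with siGCDH, against 4.54, 5.89 and 6.33 TPM with siControl (log2 fold change 0.72, SE 0.17, adjusted p = 0.0146). The siGCDH libraries of SK-Hep1 were all low, and those of A375 all high, with library 1 above the other two. In the libraries labelled SKBR3 it had 2.38, 2.50 and 1.87 TPM with siGCDH, against 2.94, 2.05 and 2.12 TPM with siControl, overlapping groups with a log2 fold change of -0.05 (adjusted p = 0.83). IER3 had 118, 116 and 112 TPM in the siGCDH libraries, against 169, 159 and 157 TPM in the siControl libraries of A375 batch 2 (log2 fold change -0.49, SE 0.05, adjusted p = 0.000263). In SK-Hep1 it had 178, 173 and 176 TPM with siGCDH, against 170.0, 176 and 180.0 TPM with siControl (log2 fold change 0.01, SE 0.04, adjusted p = 0.934). IER3 was thus lower with siGCDH in A375 batch 2, and the SK-Hep1 groups overlapped. The libraries labelled SKBR3 held little of it, 8.09, 9.84 and 9.54 TPM with siGCDH, against 6.27, 6.58 and 6.16 TPM with siControl, and its rise of 0.47 (adjusted p = 0.00638) did not pass after median scaling (0.25, adjusted p = 0.0761). An antisense gene, IER3-AS1, overlaps 26.5% of the exon bases of IER3 in the annotation, and the strand setting of the counting is not given, so it is unknown whether reads of that stretch were separated by strand.

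**Figure D2:**
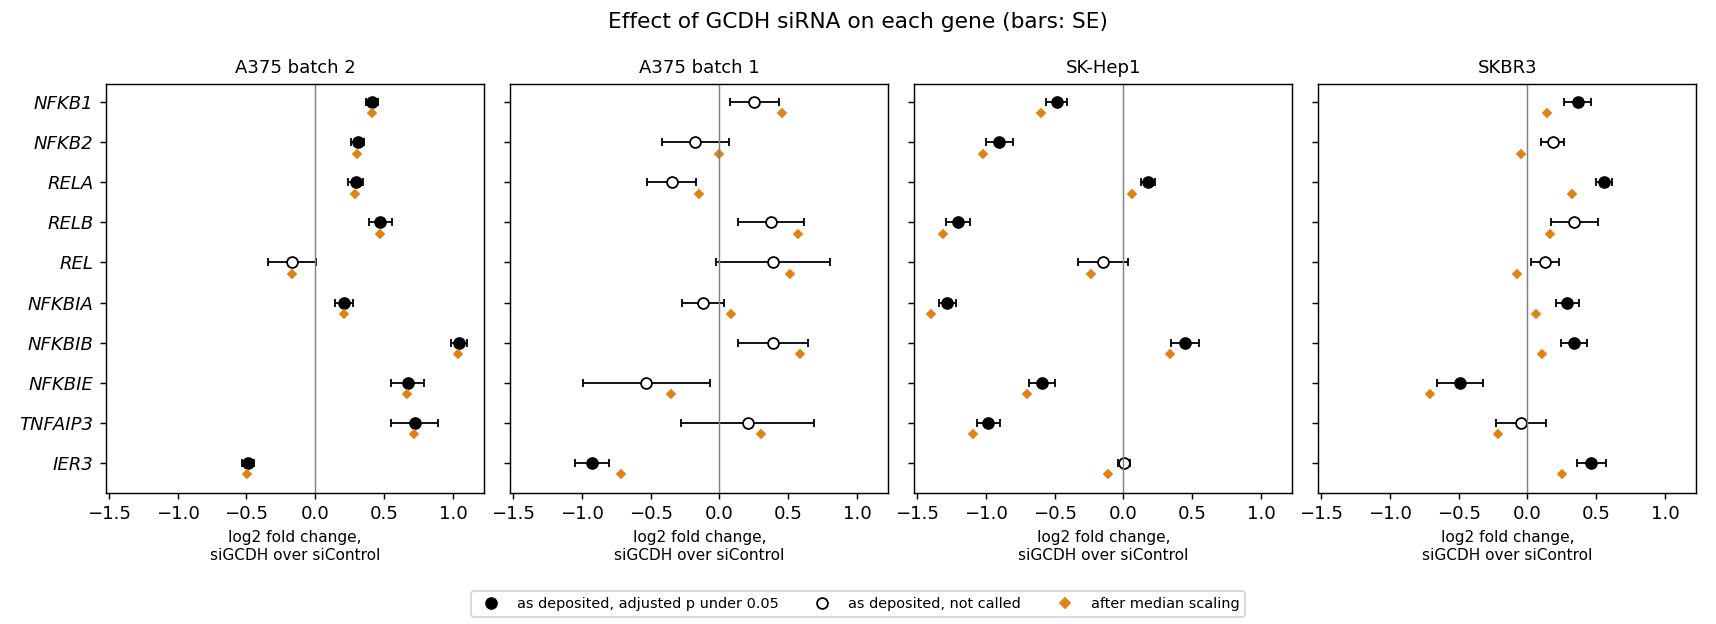
Log2 fold change (siGCDH over siControl) of each gene in A375 batch 2, A375 batch 1, SK-Hep1 and the libraries labelled SKBR3, with SE bars; filled circles passed an adjusted p of 0.05, open circles did not, and orange diamonds are the values after median scaling. In A375 batch 2, 8 genes lie right of 0 and pass, and in SK-Hep1 6 lie left of 0 and pass.

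A375 batch 1, read with the 3' tag kit, gave 1 called member. IER3 had 99.4, 91.7 and 101 TPM in the siGCDH libraries, against 183, 168 and 208 TPM in the siControl libraries of batch 1 (log2 fold change -0.93, SE 0.12, adjusted p = 0.00681), with no overlap, and -0.72 (adjusted p = 0.023) after median scaling. Without the mean-variance trend its adjusted p was 0.0618. RELA had 19.9, 26.4 and 20.1 TPM with siGCDH, against 30.5, 27.3 and 27.0 TPM with siControl, also without overlap, and did not pass (-0.35, adjusted p = 0.279). The groups of the other 8 overlapped, with log2 fold changes between -0.53 (NFKBIE) and 0.39 (NFKBIB), with SE from 0.15 (NFKBIA) to 0.48 (TNFAIP3). The share of all genes without overlap in this batch was not counted, so the overlap of the members has no background to be read against. NFKB1 held 24.2 to 32.8 TPM with siGCDH against 22.0 to 24.4 with siControl, NFKBIA 46.1 to 53.9 against 48.0 to 63.2, RELB 15.8 to 19.5 against 9.62 to 16.8 and TNFAIP3 0.810 to 1.68 against 0.150 to 1.63. These levels are not comparable with those of the full-length kit. The chromosome 21 share given above moved with the groups of this batch, and IER3 still passed when those rows were removed. RELA was the one member whose effect differed between the batches (batch 2 minus batch 1 0.64, SE 0.17, adjusted p = 0.0499), where 5.23% of all genes differed. It lost that call under median scaling (0.41, adjusted p = 0.322), and when any 1 of 11 of the 12 libraries was left out (0.57 to 0.77), the exception being siGCDH library 2 of batch 1.

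The effects of the siRNA differed between the lines by a test of the interaction itself. Between A375 batch 2 and SK-Hep1, the log2 fold change of 7 members was higher in A375 and that of 1 lower, where 46.2% of all genes differed (17.4% higher, 28.8% lower). These are signed differences, so a higher value can be the smaller effect in size, as for NFKBIA (0.21 in A375 and -1.28 in SK-Hep1). Median scaling made the counts 8 higher and 1 lower, where 3329 of 15540 tested genes were higher and 3610 lower. The differences were largest for TNFAIP3 (1.70, SE 0.19, adjusted p = 3.18e-05), RELB (1.67, SE 0.11, adjusted p = 6.65e-07) and NFKBIA (1.49, SE 0.08, adjusted p = 1.49e-07). NFKBIE (1.26), NFKB2 (1.21), NFKB1 (0.90) and NFKBIB (0.59) followed, and IER3 differed the other way (-0.49, SE 0.06, adjusted p = 3.11e-05). RELA did not pass (0.12), though it did after median scaling (0.23, adjusted p = 0.00617), and REL did not pass (-0.02, and 0.07 after median scaling). Between SK-Hep1 and the libraries labelled SKBR3, 7 members had a lower log2 fold change in SK-Hep1, where 39.5% of all genes differed (14.5% higher, 25% lower). NFKBIA (-1.57, SE 0.09, adjusted p = 8.60e-07) and RELB (-1.54, SE 0.17, adjusted p = 5.20e-05) led, before NFKB2 (-1.09), TNFAIP3 (-0.93), NFKB1 (-0.85), IER3 (-0.46) and RELA (-0.38). Between A375 batch 2 and the libraries labelled SKBR3, 3 were higher in A375 (NFKBIE 1.16, TNFAIP3 0.77 and NFKBIB 0.70) and 2 lower (IER3 -0.95 and RELA -0.27), where 51.4% of all genes differed (14.5% higher, 36.8% lower). Median scaling made this 5 higher and 1 lower, with RELA at -0.04 (adjusted p = 0.663), where 3738 of 16745 tested genes were higher and 4197 lower. Any 2 of these comparisons share the libraries of a line, so they are not independent of one another.

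**Figure D3:**
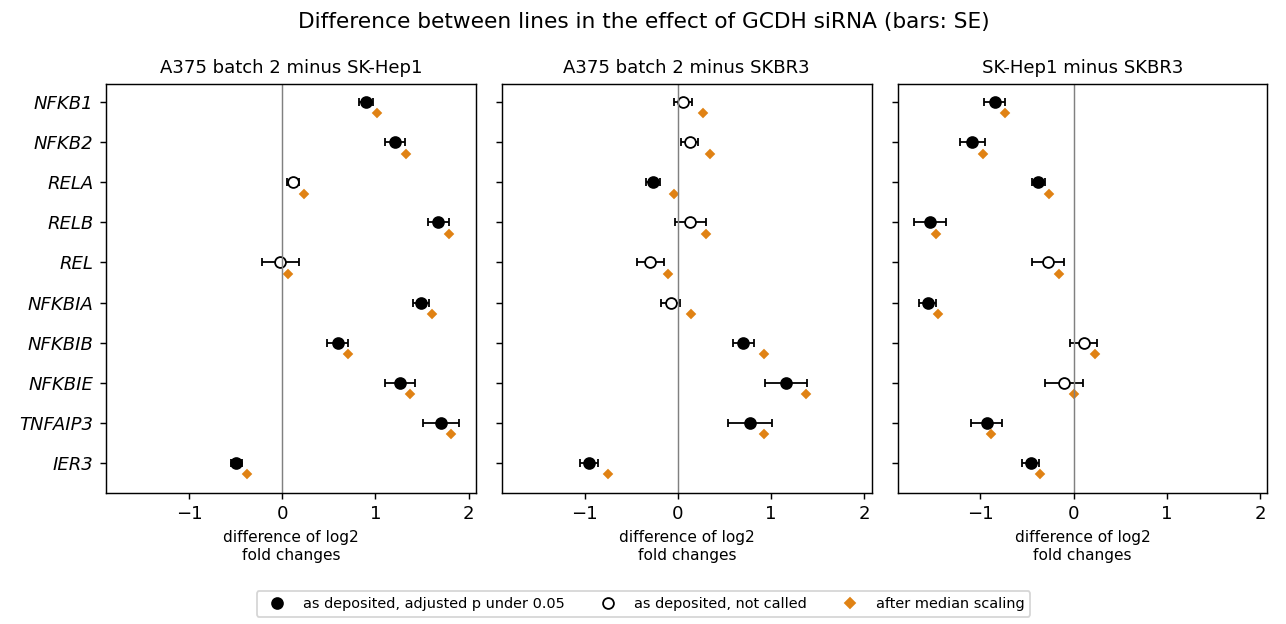
Difference between lines in the log2 fold change (siGCDH over siControl) of each gene, with SE bars, for A375 batch 2 minus SK-Hep1, A375 batch 2 minus SKBR3 and SK-Hep1 minus SKBR3; filled circles passed an adjusted p of 0.05 and orange diamonds are the values after median scaling. RELB, TNFAIP3 and NFKBIA lie far right of 0 in the first panel and left of 0 in the third.

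The makeup of the transcript pool differed between siGCDH and siControl libraries as well, given here as shares of TPM with no test. RELA made up 57.2 ± 1.73% of summed subunit TPM with siGCDH in SK-Hep1, against 39.4 ± 2.16% with siControl, and RELB made up 7.19 ± 0.447% against 13.7 ± 0.507%. The RELA share in A375 batch 2 was 27.0 ± 1.18% with siGCDH and 28.1 ± 0.558% with siControl. The IkB pool shifted away from NFKBIA in both lines. NFKBIA held 52.4 ± 1.84% of summed IkB TPM with siGCDH in SK-Hep1, against 73.2 ± 1.76% with siControl, and 37.9 ± 1.94% against 50.5 ± 0.531% in A375 batch 2. NFKBIB held 44.6 ± 0.376% against 32.9 ± 1.60% in A375 and 31.8 ± 1.85% against 12.9 ± 0.514% in SK-Hep1. The ratio of summed IkB to summed subunit TPM was 0.471 ± 0.0196 with siGCDH and 0.390 ± 0.0178 with siControl in A375 batch 2. In SK-Hep1 it was 0.500 ± 0.0526 against 0.688 ± 0.0152, and in the libraries labelled SKBR3 0.627 ± 0.0418 against 0.733 ± 0.00794 (SD, n = 3 each). Transcript shares do not give protein amounts or binding activity.

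**Figure D4:**
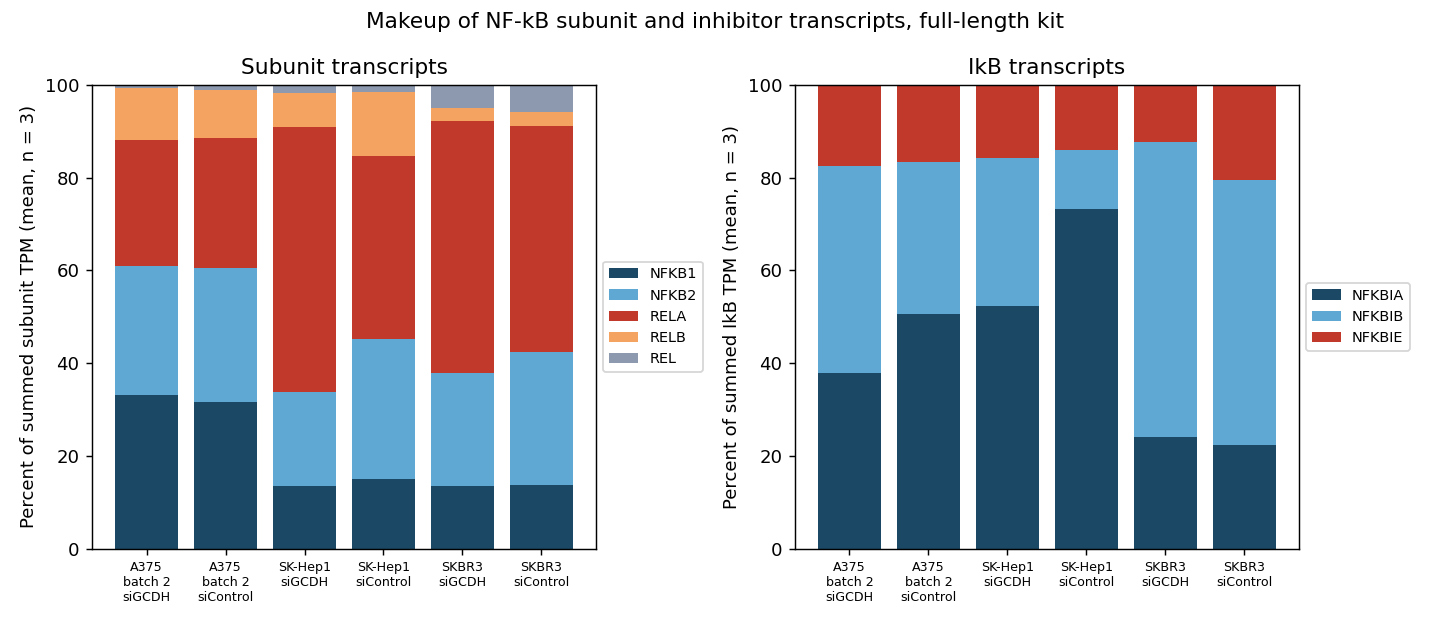
Mean share of each gene in the summed subunit TPM (left) and summed IkB TPM (right), in percent, for the siGCDH and siControl groups of A375 batch 2, SK-Hep1 and the libraries labelled SKBR3 (n = 3 each). The RELA band is widest with siGCDH in SK-Hep1 and in the libraries labelled SKBR3, and the NFKBIA band is narrower with siGCDH than with siControl in A375 batch 2 and SK-Hep1.

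Genes upstream and downstream of the members were read from 3 lists (32 kinase and adaptor genes, 17 other inhibitors and atypical IkB genes, 28 target genes). In SK-Hep1, 3 targets were higher and 13 lower of 23 tested, a median of -0.27 against 0.18 for all genes, and median scaling gave 3 and 14. Among the 3 higher, BCL2A1 had 3.38 ± 0.677 TPM with siGCDH and 0.280 ± 0.255 TPM with siControl. It passed the filter of 1 TPM only through its siGCDH level, so its call is not independent of that filter. IL6, the inflammatory cytokine, had 5.32 ± 0.524 TPM with siGCDH and 34.8 ± 0.557 TPM with siControl (log2 fold change -2.50, SE 0.09, adjusted p = 9.45e-07). The neutrophil chemokine CXCL1 had 43.3 ± 2.52 TPM with siGCDH and 135 ± 7.22 TPM with siControl (-1.62). IL1B, the interleukin-1 beta gene, went the other way with 359.6 ± 5.72 TPM with siGCDH and 165 ± 2.39 TPM with siControl (log2 fold change 1.12, SE 0.04, adjusted p = 8.44e-07). These counts stand beside 37.3% of all genes higher and 18.2% lower in SK-Hep1 (55.5% called). Of the kinase and adaptor genes in SK-Hep1, 9 were higher and 8 lower of 31, near that share in total (6 and 11 after median scaling), among them the receptor TNFRSF1A (-0.81), the kinase IRAK1 (-0.74) and the adaptor TAB3 (-0.99). Of the other inhibitors there, 10 were higher and 3 lower of 17 (5 and 4 after median scaling), with the deubiquitinase CYLD at 33.0 ± 1.49 TPM with siGCDH and 15.3 ± 1.31 TPM with siControl (1.06), RNF11, a partner of A20, at 0.47 and PDLIM2, a ligase for RELA, at -0.57.

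In A375 batch 2, where 17.9% of all genes were higher and 15.7% lower (33.6% called), the targets were split, with 6 higher and 4 lower of 24 and a median of -0.11 (7 and 4 after median scaling), while 8 members rose. The chemokine CCL2 had 9.76 ± 2.12 TPM with siGCDH and 50.8 ± 2.33 TPM with siControl (log2 fold change -2.28, SE 0.13, adjusted p = 3.55e-05). The syndecan SDC4 had 33.2 ± 0.958 TPM with siGCDH and 68.6 ± 3 TPM with siControl (-1.02). GADD45B, a stress and survival gene, had 19.8 ± 1.56 TPM with siGCDH and 10.8 ± 0.233 TPM with siControl (0.82). Kinase and adaptor genes were higher in 11 and lower in 3 of 31, among them the TWEAK receptor TNFRSF12A with 468 ± 19.9 TPM with siGCDH and 212 ± 4.42 TPM with siControl (log2 fold change 1.14, SE 0.04, adjusted p = 4.50e-06), the kinase IKBKE (-0.95) and the adaptor MYD88 (-0.64). Other inhibitors were higher in 4 and lower in 4 of 17, with NKIRAS1 (0.40) and NKIRAS2 (0.46), small proteins that bind IkB, higher and TNIP2 (-0.70), an A20-binding protein, lower. CCL2 and SDC4 were also lower in A375 batch 1 (-2.87 and -1.43, adjusted p = 0.00327 and 0.00487), as were IKBKE (-1.78), the ligase subunit RBCK1 (-0.68) and the chemokine CXCL8 (-1.12). In batch 1 these last 3 did not pass after median scaling and lost their call in 5 or 6 of the 6 fits that left out 1 library. CXCL8 was also lower in A375 batch 2 (-0.47, adjusted p = 0.00114) and SK-Hep1 (-0.79, adjusted p = 0.000225), whereas RBCK1 was not called in A375 batch 2 (-0.11). The fall of CCL2 was seen in SK-Hep1 too (-2.94, adjusted p = 1.66e-06). SDC4 was not called in SK-Hep1 (-0.10, adjusted p = 0.149), though it passed after median scaling (-0.22, adjusted p = 0.00929). A375 batch 1 had 1 target higher and 4 lower of 20 and 2 kinase or adaptor genes lower of 28, and of 15 other inhibitors limma called 0, with 1 at an unadjusted p under 0.05. Of all genes of that batch 7.91% were called (1.18% higher, 6.73% lower). Median scaling gave 1 target higher and 2 lower, and 0 kinase or adaptor genes called.

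In the libraries labelled SKBR3, where 47.3% of all genes were higher and 14.7% lower (62.1% called), 11 of 28 targets passed the filter on low genes, and 5 were called, each higher (4 after median scaling), near the share of all genes called higher, with a median of 0.27 against 0.29 for all genes. The antigen-processing gene TAP1 had 17.7 ± 1.47 TPM with siGCDH and 7.48 ± 0.337 TPM with siControl (1.14). Another, PSMB9, had 3.23 ± 0.396 TPM with siGCDH and 0.590 ± 0.246 TPM with siControl, and it passed the filter of 1 TPM only through its siGCDH level, so its call is not independent of that filter. The urokinase gene PLAU had 5.70 ± 1.16 TPM with siGCDH and 1.62 ± 0.172 TPM with siControl (1.34). Kinase and adaptor genes were higher in 15 and lower in 5 of 28, and 7 and 5 after median scaling, among them TRAF5 (0.80), IRAK1 (-0.64) and TAB2 (-0.53). Other inhibitors were higher in 9 and lower in 1 of 17, and 5 and 1 after median scaling, with RNF11 (0.98), CYLD (0.92) and NKIRAS1 (0.64).

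The genes whose levels followed each member most closely were taken over the 18 full-length libraries, by Pearson r of log2(TPM + 1) among 11736 genes. The 18 libraries are 3 lines in 6 groups, so r mostly reflects differences between lines and is given as a description. RELB was closest to the adhesion molecule ICAM1 (0.984), and TNFAIP3 to the interferon regulatory factor IRF1 (0.987). NFKB1 was closest to the AP-1 subunit JUNB (0.989), and IER3 to SLC35D2 (0.998) and the lymphotoxin beta receptor LTBR (0.996). For the other members the closest were ABTB2 for NFKB2 (0.974), INPP1 for RELA (0.948), MIB1 for REL (0.987), HIST1H2AC for NFKBIA (0.986), ZNF511 for NFKBIB (0.974) and CYB5R1 for NFKBIE (0.958).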

How the data were processed

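The authors deposited one table of TPM values per gene and library. They used RSEM 1.3.1, STAR 2.7.0d and cutadapt 2.3 with hg38, per the submitters' processing notes. For the annotation version and the strand option, the sources used here give nothing. All 24 columns were mapped from the labels. Values were transformed to log2(TPM + 1) and fitted with limma 3.58.1 (R 4.3.3; lmFit, eBayes with trend) over genes averaging 1 TPM or more, on 6 libraries per line and batch or 12 per difference of effects. P-values were two-sided, adjusted by Benjamini-Hochberg over all genes of a fit, and called under 0.05. The fits were tested on simulated data. All 10 members were named, plus GCDH, up to 3 called genes per list and comparison with the smallest adjusted p, and the 3 most alike genes per member, of which the report gives the closest. The members and lists were chosen with earlier results of these data known. Alternatives were pseudocounts of 0.1 and 5, no filter or 5 TPM, median scaling, no trend, a replicate block and leaving out each library, and, added after seeing the data, removal of 6 chromosome 21 rows. Figures and tables used Python 3.11.15.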

Additional observations from a re-analysis of the deposited data

Results flagged for a closer look

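The effect of GCDH siRNA (log2 fold change, siGCDH over siControl) differed between lines or batches in 21 tests of members, each a limma interaction on the difference itself with an adjusted p under 0.05. Every comparison tested all 10 members. Of all tested genes, 46.2% differed for A375 batch 2 minus SK-Hep1 and 51.4% for A375 batch 2 minus the libraries labelled SKBR3. The share was 39.5% for SK-Hep1 minus those libraries and 5.23% between the A375 batches. For A375 batch 2 minus SK-Hep1 the differences were 1.70 for TNFAIP3, 1.67 for RELB, 1.49 for NFKBIA, 1.26 for NFKBIE, 1.21 for NFKB2, 0.90 for NFKB1, 0.59 for NFKBIB and -0.49 for IER3. For A375 batch 2 minus the libraries labelled SKBR3 they were 1.16 for NFKBIE, 0.77 for TNFAIP3, 0.70 for NFKBIB, -0.27 for RELA and -0.95 for IER3. RELA did not pass there after median scaling (-0.04, adjusted p = 0.663). For SK-Hep1 minus the libraries labelled SKBR3 they were -1.57 for NFKBIA, -1.54 for RELB, -1.09 for NFKB2, -0.93 for TNFAIP3, -0.85 for NFKB1, -0.46 for IER3 and -0.38 for RELA. Between A375 batch 2 and batch 1 the difference was 0.64 for RELA. That call was lost after median scaling (0.41, adjusted p = 0.322) and in 11 of the fits that left out 1 library. The comparisons between lines share libraries.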

How the results depend on the processing

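Over the alternatives, 1572 values of the members kept direction and call, 57 lost their call, 13 gained one and 30 changed sign. Median scaling left 2 of 6 called members in the libraries labelled SKBR3, where NFKB2 became -0.048 and REL -0.074, and it turned the sign of IER3 in SK-Hep1 (-0.114), NFKBIA in batch 1 (0.087), REL in A375 batch 2 minus SK-Hep1 (0.067), NFKBIA in A375 batch 2 minus SKBR3 (0.137), NFKBIE in SK-Hep1 minus SKBR3 (0.003) and NFKBIE in the siControl level of A375 batch 2 minus SKBR3 (-0.028). In batch 1, 0 members were called without a trend, against 1, and without the chromosome 21 rows NFKB2 was 0.080 and NFKBIA 0.184. Between the A375 batches, limma called 1 member (5 at an unadjusted p under 0.05), against 2 with a pseudocount of 5 or a filter at 5 TPM, and 0 with no filter, median scaling, no trend, the replicate block or the chromosome 21 rows removed. There NFKB1 was -0.078 and RELB -0.152 after median scaling, and -0.141 and -0.202 without those rows. The cause of these changes was not tested. Counts over all genes moved by over 1.5 times in batch 1, where 1018 became 590 with no filter, 501 with median scaling, 85 with no trend, 357 with the block and 488 without the chromosome 21 rows, and between the batches, where 772 became 174, 225, 243 and 186 under the last 4 of these. Leaving out 1 library gave 311 to 592 and 261 to 1190 genes there.

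Leaving out 1 library at a time gave 8 called members for batch 2 of A375, 1 for its batch 1, 7 to 8 for SK-Hep1, 4 to 6 for the libraries labelled SKBR3 and 0 to 1 between the batches. Single values changed sign over the ranges -0.122 to 0.313 (TNFAIP3, batch 1), -0.017 to 0.024 (IER3, SK-Hep1), -0.115 to 0.07 (TNFAIP3, SKBR3), -0.155 to 0.063 (REL, A375 batch 2 minus SK-Hep1), -0.013 to 0.129 (NFKB1, A375 batch 2 minus SKBR3), -0.22 to 0.041 (NFKBIE, SK-Hep1 minus SKBR3), -0.084 to 0.288 (RELB, between the batches) and -0.118 to 0.144 (NFKBIE, siControl level of A375 batch 2 minus SKBR3).

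Samples of the 2 treatments share replicate numbers in the labels, but same-numbered libraries deviated together with correlations of -0.063 to 0.14 only, so the numbers were not taken as pairs. With the replicate number as a block 8 members were called for batch 2 of A375, 1 for its batch 1, 8 for SK-Hep1 and 5 for the libraries labelled SKBR3. NFKBIA lost its call under the block in A375 batch 2 and in the libraries labelled SKBR3. TPM hold no depth, so low members such as REL cannot be given a counting error.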
